A study of Mus musculus with 27 samples.

Results

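The 10 genes described here belong to the antioxidant response of the transcription factor NRF2: *Nfe2l2*, which encodes NRF2, its inhibitor *Keap1*, and *Gclc*, *Gclm*, *Slc7a11*, *Txnrd1*, *Srxn1*, *Nqo1*, *Hmox1* and *G6pdx*, which are known NRF2 targets. They were chosen by name, as rows of the count tables whose Ensembl mouse identifier maps to these symbols, and make up 10 of 46078 genes listed. The tissue was scraped epithelium of the distal ileum, taken on postnatal day 56 from 27 male C57BL/6 mice in 9 groups of 3, and RNA-Seq gave its RNA levels. Mice received sesame oil vehicle or TCDD, at 0.01, 0.03 or 0.1 µg/kg, at 0.3 or 1 µg/kg, or at 3, 10 or 30 µg/kg, by gavage every 4 days for 28 days. All mice were wild type, the control group shared the vehicle and the dosing schedule, and the study states that mice were co-housed, while the labels used here give no cage. The question put to these genes is whether the antioxidant response accompanied activation of the aryl hydrocarbon receptor (AhR) in the ileum.

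NRF2 is held in the cytoplasm by KEAP1, which hands it to the CUL3 ubiquitin ligase for degradation, and oxidants or electrophiles that modify KEAP1 let NRF2 accumulate, pair with a small MAF protein and bind antioxidant response elements. TCDD is a persistent ligand of AhR, which binds dioxin response elements as a dimer with ARNT and induces *Cyp1a1* and other genes of xenobiotic metabolism. The pathways are known to meet at *Nqo1*, whose regulation has been tied to both factors, and at *Nfe2l2*, which is counted among the AhR target genes.

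Because the factors differ in the sequence they bind, the start regions of the genes are shown first. RefSeq promoter entries (GRCm38.p6) matched 8 of the 10 genes, and *Gclc* and *Hmox1* had none. Within the 250 bases before each start, both strands were searched for TGACNNNGC, the core of the antioxidant response element, and for GCGTG, the core of the dioxin response element. The first was found in 4 of the 8 genes (*Nfe2l2*, *Gclm*, *Txnrd1* and *G6pdx*) and the second in 5 (*Srxn1*, *Gclm*, *Keap1*, *Txnrd1* and *G6pdx*). Of all 32851 promoter entries, 10.2% held TGACNNNGC and 28.2% held GCGTG. These shares are per entry, whereas a gene was counted if any of its entries held the motif. The 8 genes had 10 entries, so the counts and the shares are not in the same unit. *Nfe2l2* is printed because it was called in these data, *Gclm* because it held both motifs, and *Nqo1* because it held neither. *Txnrd1* and *G6pdx* also held both motifs, and *Slc7a11* also held neither. *Gclm*, *Txnrd1*, *G6pdx*, *Nqo1* and *Slc7a11* were not called. Capitals mark the matches on either strand, which did not overlap each other in these sequences, and every run reads 5′ to 3′ on the strand of the gene.

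*Nfe2l2*, chr2:75704664-75704913, minus strand: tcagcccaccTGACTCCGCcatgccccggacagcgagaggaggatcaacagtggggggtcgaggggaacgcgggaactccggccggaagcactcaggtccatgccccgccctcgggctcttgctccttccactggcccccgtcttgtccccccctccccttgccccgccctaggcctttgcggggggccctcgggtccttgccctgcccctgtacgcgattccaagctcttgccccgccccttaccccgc
*Gclm*, chr3:122245307-122245556, plus strand: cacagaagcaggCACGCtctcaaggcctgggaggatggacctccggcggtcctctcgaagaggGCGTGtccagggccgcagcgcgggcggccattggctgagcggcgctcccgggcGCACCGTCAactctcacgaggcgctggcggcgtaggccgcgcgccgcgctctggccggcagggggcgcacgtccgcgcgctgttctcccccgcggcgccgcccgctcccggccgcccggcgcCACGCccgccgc
*Nqo1*, chr8:107403206-107403455, minus strand: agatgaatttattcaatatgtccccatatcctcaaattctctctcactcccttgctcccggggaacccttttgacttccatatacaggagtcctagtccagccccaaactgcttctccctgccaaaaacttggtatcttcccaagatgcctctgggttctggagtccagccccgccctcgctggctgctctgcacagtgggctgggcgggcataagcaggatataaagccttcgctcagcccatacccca

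The match of *Nfe2l2* to TGACNNNGC begins 240 bases before its start. The single match of *Gclm* to that motif lies on the opposite strand, 134 to 126 bases before the start, and its 3 matches to GCGTG lie 238 to 234, 187 to 183 and 12 to 8 bases before it. These matches describe letters in a short window only.

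Each mouse had 12.26 to 17.14 M counts on genes. Mouse 1 at 30 µg/kg stood apart from the other mice of its dose, with a chi-square per degree of freedom of 74.26 and 45.51 against them, where the pairs of the other doses ran from 6.99 to 22.55. All 10 genes passed the filter on low counts, as did 16741 genes in all. Levels are given as CPM, counts scaled to an equal library total after TMM normalization. Known AhR targets give the measure of AhR activation in the same mice. *Cyp1a1*, the cytochrome P450 most used as a marker of AhR, ranged up to 0.211 CPM in vehicle mice. It lay between 3.32 and 6.3 CPM at 1 µg/kg, between 14.2 and 64.7 CPM at 3 µg/kg, between 516 and 647 CPM at 10 µg/kg and between 1062 and 2279 CPM at 30 µg/kg. *Cyp1b1*, a related P450, rose 64.5-fold at 30 µg/kg and *Ahrr*, the AhR repressor, 29.8-fold. Of 10 listed AhR targets, 8 passed the filter, and 2, 3, 5 and 7 of these were called higher than vehicle at 1, 3, 10 and 30 µg/kg, beside 0.4%, 0.645%, 1.76% and 5.42% of all genes. The 7 at 30 µg/kg were *Cyp1a1*, *Cyp1b1*, *Ahrr*, *Tiparp*, *Ugt1a6a*, *Ugt1a6b* and *Nfe2l2*, and *Nqo1* was the tested member without a call. *Nfe2l2* and *Nqo1* stand in both gene lists, so their values are not a separate measure of AhR activation.

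A call required an adjusted p of at most 0.05 over all genes (edgeR, quasi-likelihood) and a level 1.5-fold or more above or below vehicle, and these p-values rest on 3 mice per group. Among the 10 NRF2 genes, 2 were called, *Gclc* and *Nfe2l2*, both higher at 30 µg/kg. At that dose 9.4% of all genes tested were called, and 5.42% were called higher and 3.98% lower. No NRF2 gene was called at 1, 3 or 10 µg/kg, where 0.591%, 1.11% and 2.53% of all genes were called. At those doses 1, 2 and 2 of the 10 had an unadjusted p under 0.05, as did 2356, 2289 and 2905 of the 16741 genes tested, and DESeq2 also called 0 of the 10. At 0.01, 0.03, 0.1 and 0.3 µg/kg edgeR called 0 of the 10 and 0% of all genes, while unadjusted p was under 0.05 for 0, 0, 2 and 0 of the 10 and for 699, 591, 1037 and 1247 of all genes, and DESeq2 again called 0 of the 10 at each. The median log2 fold change of the 10 genes at 30 µg/kg was -0.01, beside 0.019 over all genes tested. Since the tissue was measured in bulk, fewer cells of a type and less RNA per cell cannot be told apart in any of these values.

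**Figure D1:**
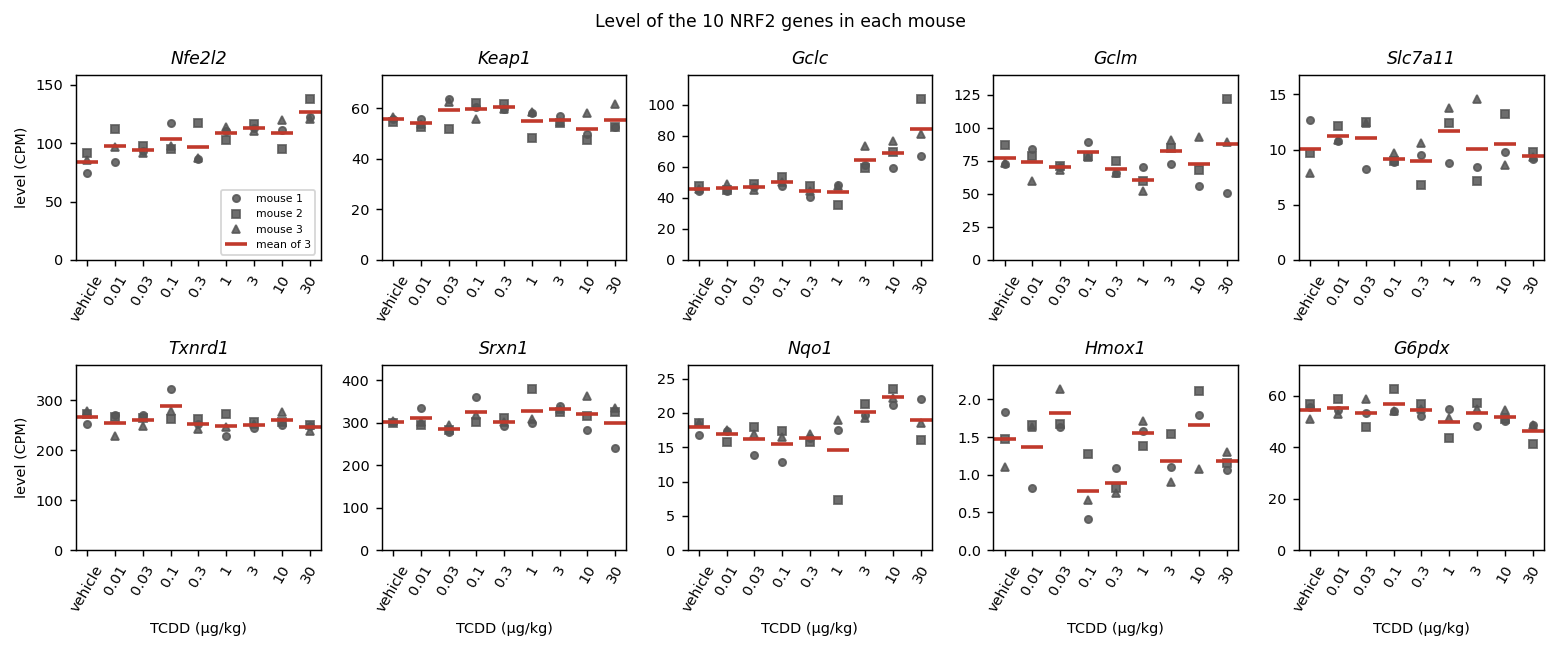
Level of each of the 10 NRF2 genes (CPM, linear axes from 0) by TCDD dose, with 1 symbol per mouse and a red bar at the mean of 3 mice. *Gclc* lay between 67.3 and 104 CPM at 30 µg/kg against 44.5 to 47.4 CPM in vehicle mice, while *Keap1* lay between 47.3 and 63.7 CPM over all 27 mice.

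*Gclc* (ENSMUSG00000032350, chromosome 9, 77754535 to 77794485) encodes the catalytic subunit of glutamate-cysteine ligase, the rate-limiting enzyme of glutathione synthesis. In vehicle mice 1 to 3 it was at 44.5, 47.4 and 46 CPM. The corresponding mice were at 44.4, 45.3 and 48.9 CPM at 0.01 µg/kg, at 47.1, 48.8 and 45.1 CPM at 0.03 µg/kg, at 47.5, 53.7 and 50.4 CPM at 0.1 µg/kg and at 40.7, 47.7 and 44.6 CPM at 0.3 µg/kg. They were at 48.2, 35.4 and 47.7 CPM at 1 µg/kg, at 61.3, 59 and 73.2 CPM at 3 µg/kg, at 59.6, 69.6 and 77 CPM at 10 µg/kg and at 67.3, 104 and 81.5 CPM at 30 µg/kg. All 9 mice given 3 µg/kg or more were above all 18 mice given less. Ordered by their means, the groups overlapped with their neighbours except at the step from 0.1 to 3 µg/kg, and from 3 to 30 µg/kg the means of 64.5 ± 7.61, 68.7 ± 8.72 and 84.3 ± 18.5 CPM (SD, n = 3) overlapped in range.

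Against vehicle, the log2 fold change of *Gclc* was -0.068 (SE 0.13) at 1 µg/kg, 0.49 (SE 0.13) at 3 µg/kg, 0.58 (SE 0.13) at 10 µg/kg and 0.87 (SE 0.13) at 30 µg/kg. The last is 1.83-fold, with a 95% confidence interval from 0.60 to 1.14 on the log2 scale and an adjusted p of 8.2e-05 (edgeR, quasi-likelihood). At 3 µg/kg the adjusted p was 0.054, and at 10 µg/kg it was 0.013 with a fold change just under the limit of 0.585 on the log2 scale. That call at 10 µg/kg was near its limit. It was made when vehicle mouse 2 (log2 0.60) or mouse 1 at 10 µg/kg (log2 0.68) was left out. Without mouse 1 at 30 µg/kg the log2 fold change at that dose was 0.98, and without mouse 2, the highest, it was 0.69, and *Gclc* was called in both cases. The exact permutation test of 3 mice against 3 gave p = 0.1 at 3, 10 and 30 µg/kg, the smallest that it allows.

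*Nfe2l2* (ENSMUSG00000015839, chromosome 2, 75675513 to 75704641) was at 74.6, 91.9 and 85.4 CPM in the vehicle mice. At 0.01 µg/kg it was at 83.6, 112 and 97 CPM, at 0.03 µg/kg at 93.2, 97.3 and 91.9 CPM, at 0.1 µg/kg at 117, 95 and 97.8 CPM and at 0.3 µg/kg at 86.4, 117 and 87.5 CPM. At 1 µg/kg it was at 110, 103 and 114 CPM, at 3 µg/kg at 113, 116 and 110 CPM, at 10 µg/kg at 111, 95.1 and 120 CPM and at 30 µg/kg at 122, 138 and 121 CPM. The 12 mice given 1 µg/kg or more were all above the 3 vehicle mice, and the 3 mice at 30 µg/kg were the highest 3 of the 27. The log2 fold change was 0.38 (SE 0.12, adjusted p 0.14) at 1 µg/kg, 0.43 (SE 0.12, adjusted p 0.068) at 3 µg/kg, 0.37 (SE 0.12, adjusted p 0.087) at 10 µg/kg and 0.60 (SE 0.12, adjusted p 0.0014) at 30 µg/kg. The 30 µg/kg value is 1.51-fold, with a 95% confidence interval from 0.35 to 0.84 on the log2 scale. It stood just above the fold limit, and leaving out vehicle mouse 1 (log2 0.51, adjusted p 0.015) or mouse 2 at 30 µg/kg (log2 0.53, adjusted p 0.014) took it below that limit. Without mouse 1 at 30 µg/kg it was 0.59 and was called. The cause of the difference between mice was not tested.

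*Keap1* (ENSMUSG00000003308, chromosome 9, 21229730 to 21239361), the inhibitor, was at 54.7 to 56.6 CPM in vehicle mice and at 52.4, 52.5 and 61.5 CPM at 30 µg/kg. Its level ranged from 47.3 to 63.7 CPM over all 27 mice, and its log2 fold change at 30 µg/kg was -0.0063 with a 95% confidence interval from -0.20 to 0.18. Its exons overlap an antisense gene, *Gm16754*, and whether the counting used strand is not given in the sources used here.

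**Figure D2:**
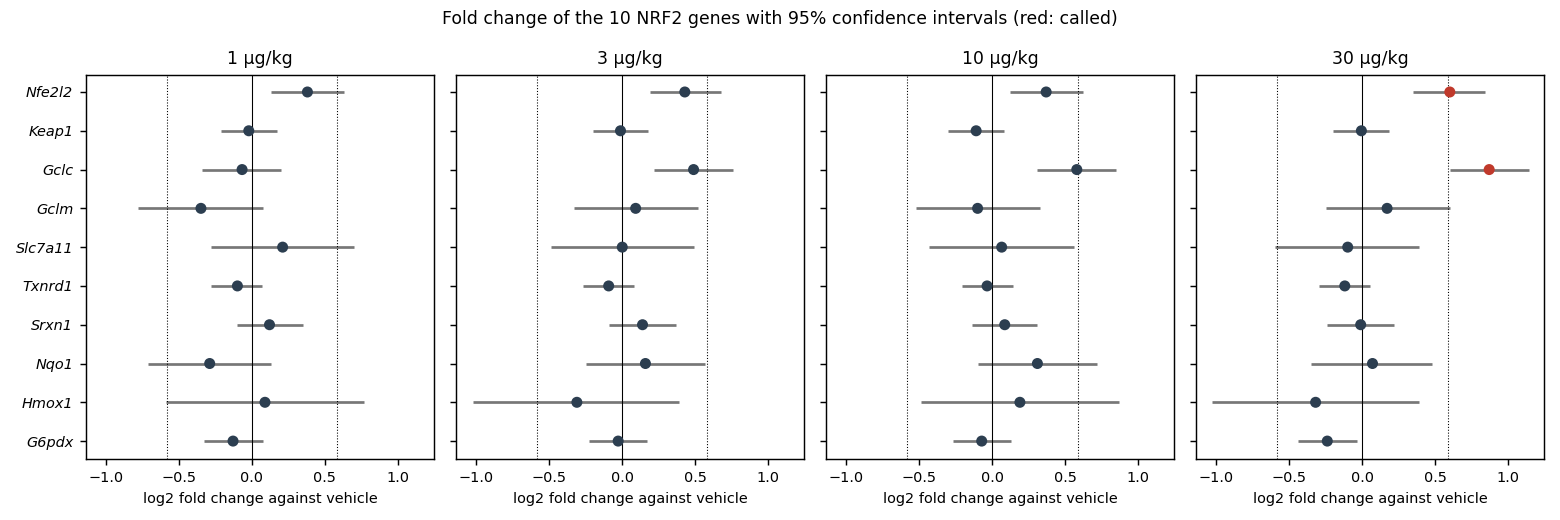
Log2 fold change against vehicle of the 10 NRF2 genes at 1, 3, 10 and 30 µg/kg, with bars for the 95% confidence interval, dotted lines at the 1.5-fold limit and called genes in red. At 30 µg/kg *Nfe2l2* (0.60) and *Gclc* (0.87) were called, and the intervals of the other 8 genes at that dose held 0, except that of *G6pdx*, which ran from -0.44 to -0.035.

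*Gclm* (ENSMUSG00000028124, chromosome 3, 122245557 to 122270732) encodes the modifier subunit that pairs with GCLC. It was at 72.4, 86.7 and 73.3 CPM in vehicle mice and at 50.9, 122 and 89.4 CPM at 30 µg/kg, so that the treated mice lay on both sides of the vehicle mice. The log2 fold change was 0.17 (95% confidence interval -0.25 to 0.60, adjusted p 0.62). In mouse 1 at 30 µg/kg, *Gclc* was above all vehicle mice while *Gclm* was the lowest of all 27 mice. Leaving out mouse 2 at 30 µg/kg gave *Gclm* a log2 fold change of -0.15, and leaving out mouse 1 gave 0.42. Its exons overlap *Gm17494* and the pseudogene *Gm6061*, so some of its reads could have been left out of its count.

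*Slc7a11* (ENSMUSG00000027737, chromosome 3, 49892526 to 50443614), the cystine transporter that supplies cysteine for glutathione, was low, at 12.7, 9.68 and 7.89 CPM in vehicle mice and 9.1, 9.75 and 9.36 CPM at 30 µg/kg. Its counts per mouse ran from 102 to 226, and its 95% confidence interval at 30 µg/kg ran from -0.60 to 0.39 on the log2 scale. That interval excludes a 1.5-fold rise and holds a 1.5-fold fall.

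The thiol-reducing enzymes were the most abundant of the 10 genes. *Txnrd1* (ENSMUSG00000020250, chromosome 10, 82833951 to 82897712), cytosolic thioredoxin reductase, was at 253, 272 and 278 CPM in vehicle mice and at 249, 250 and 239 CPM at 30 µg/kg. Its log2 fold change of -0.12 had a 95% confidence interval from -0.30 to 0.052, which lies well inside the 1.5-fold limit. *Srxn1* (ENSMUSG00000032802, chromosome 2, 152105516 to 152111376), sulfiredoxin, which repairs overoxidized peroxiredoxins, was at 302, 300 and 304 CPM in vehicle mice and at 241, 325 and 334 CPM at 30 µg/kg. Its interval at 30 µg/kg ran from -0.24 to 0.22 on the log2 scale around -0.011. Per kilobase of merged exons, the mean vehicle level of *Srxn1* was 107 CPM per kb, that of *Txnrd1* 37.8, that of *Nfe2l2* 22.1 and that of *G6pdx* 17.7. *Gclm*, *Gclc*, *Keap1* and *Nqo1* lay between 11.6 and 12.3 CPM per kb, and *Hmox1* and *Slc7a11* were at 0.839 and 0.724. By the longest transcript *Txnrd1* was at 73.9 and *Nfe2l2* at 33.9 CPM per kb, and *Srxn1* still led.

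*Nqo1* (ENSMUSG00000003849, chromosome 8, 107388225 to 107403206) encodes a quinone reductase that is widely used as a readout of NRF2 activity. It was at 16.8, 18.6 and 18.6 CPM in the vehicle mice. At 0.01 µg/kg it was at 17.4, 15.8 and 17.5 CPM, at 0.03 µg/kg at 13.8, 17.9 and 17 CPM, at 0.1 µg/kg at 12.8, 17.3 and 16.5 CPM and at 0.3 µg/kg at 16.3, 15.7 and 17 CPM. At 1 µg/kg it was at 17.5, 7.37 and 19 CPM, at 3 µg/kg at 19.7, 21.3 and 19.3 CPM, at 10 µg/kg at 21.1, 23.5 and 22.2 CPM and at 30 µg/kg at 22, 16.1 and 18.6 CPM. The mice at 3 and 10 µg/kg were above all vehicle mice, those at 30 µg/kg lay around them, and mouse 2 at 1 µg/kg was far below the other 26.

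The log2 fold change of *Nqo1* was 0.16 (SE 0.20, adjusted p 0.80) at 3 µg/kg, 0.31 (SE 0.20, adjusted p 0.47) at 10 µg/kg and 0.07 (SE 0.20, adjusted p 0.85) at 30 µg/kg. The 95% confidence interval at 30 µg/kg, from -0.35 to 0.48, excludes a 1.5-fold rise, while that at 10 µg/kg, from -0.10 to 0.72, does not. Without mouse 1 at 30 µg/kg the log2 fold change at that dose was -0.086. At 1 µg/kg it was -0.29, and 0.014 without mouse 2. That mouse also had the lowest *Gclc* level of all 27, at 35.4 CPM, together with the lowest summed stroma markers, at 48.3 CPM, and smooth muscle markers, at 22.3 CPM. Its summed stem cell markers were at 46.8 CPM against 136 and 95.1 CPM in mice 1 and 3 at that dose. Mouse 2 at 30 µg/kg had sums of 48.4 CPM for stroma, 40.1 CPM for stem cells and 78.6 CPM for smooth muscle. In that mouse *Nqo1* was at 16.1 CPM and *Gclc* at 104 CPM. The part of tissue composition in the *Nqo1* value of mouse 2 at 1 µg/kg was not tested.

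*Hmox1* (ENSMUSG00000005413, chromosome 8, 75093621 to 75100589), heme oxygenase-1, was barely expressed, with 6 to 32 counts per mouse and levels from 0.415 to 2.14 CPM. It was at 1.83, 1.47 and 1.11 CPM in vehicle mice and at 1.07, 1.16 and 1.3 CPM at 30 µg/kg. Its log2 fold change at 30 µg/kg was -0.32 (SE 0.34, adjusted p 0.58), and its 95% confidence interval from -1.03 to 0.39 holds a fall past the 1.5-fold limit. *G6pdx* (ENSMUSG00000031400, chromosome X, 74409483 to 74429194), which encodes glucose-6-phosphate dehydrogenase and supplies NADPH, was at 55.7, 56.7 and 51 CPM in vehicle mice and at 48.6, 41.3 and 48.8 CPM at 30 µg/kg. All 3 treated mice were below all vehicle mice, and the log2 fold change was -0.24 (SE 0.10, adjusted p 0.095). Its exons overlap *Ikbkg*, which is read from the opposite strand.

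The groups at 30 µg/kg and vehicle did not overlap for 4 of the 10 genes, higher for *Gclc* and *Nfe2l2* and lower for *Txnrd1* and *G6pdx*, and did not overlap for 27.1% of all genes tested. At 3 µg/kg 4 of the 10 did not overlap with vehicle, all higher (*Gclc*, *Nfe2l2*, *Nqo1* and *Srxn1*), beside 24.5% of all genes. At 10 µg/kg the number was 3, all higher (*Gclc*, *Nfe2l2* and *Nqo1*), beside 23.2%. At 1 µg/kg *Nfe2l2* was higher and *Gclm* lower without overlap, beside 20.5%. At 0.3 µg/kg *Keap1* was higher and *Hmox1* lower, beside 16.6%, and at 0.1 µg/kg 2 were higher, beside 13.7%. At 0.03 µg/kg *Nfe2l2* was higher and *Gclm* and *Srxn1* were lower, beside 10%, and at 0.01 µg/kg all 10 overlapped with vehicle, beside 11.2%. Between 30 and 3 µg/kg only *Nfe2l2* of the 10 did not overlap, beside 14.6%. The 10 genes were also compared with each other over the 27 mice. Pearson's correlation of log2 CPM ran from -0.50 to 0.64 over the 45 pairs of genes, with a median of -0.02, and these values share libraries and depth. The highest was that of *Gclc* with *Nfe2l2*. Pairs of other genes were not measured beside them.

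A slope on the rank of the dose was fitted over all 27 mice, and 26.2% of all genes tested passed an adjusted p of 0.05. Among the NRF2 genes the same 2 passed, *Gclc* with 0.1 log2 units per dose step (SE 0.016, adjusted p 4.3e-05) and *Nfe2l2* with 0.058 (SE 0.011, adjusted p 0.00019). *G6pdx* had a slope of -0.023 (SE 0.0089, adjusted p 0.052). The test of any difference among the 9 groups, which 9.53% of all genes passed, also gave *Gclc* (adjusted p 4e-05) and *Nfe2l2* (adjusted p 0.037). Between 30 and 3 µg/kg, 0.89% of all genes and 0 of the 10 genes were called by edgeR. Of the 10, 2 had an unadjusted p under 0.05, as did 2250 of the 16741 genes tested. *Gclc* had a log2 difference of 0.38 (95% confidence interval 0.12 to 0.65, adjusted p 0.16).

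The kit's set of library index sequences served first for 16 mice (vehicle to 0.3 µg/kg, and mouse 1 at 1 µg/kg) and again for the remaining 11. Whether the uses were separate library pools is not given in the sources used here. Vehicle and 3, 10 or 30 µg/kg differ in index use, so in those comparisons dose and index use cannot be told apart, while 30 and 3 µg/kg share it and only 1 µg/kg holds mice of both. Within the 16 mice the slope of *Gclc* was 0.0045 (SE 0.016, adjusted p 0.95) and 0.144% of all genes passed. Within the 11 mice it was 0.29 (SE 0.063, adjusted p 0.036) and 1.44% passed. The slope of *Nfe2l2* was 0.053 (SE 0.025, adjusted p 0.37) in the 16 mice and 0.062 (SE 0.037, adjusted p 0.51) in the 11, close in size to the pooled value and past the threshold in neither set. With index use as a term, which rests on the 3 mice at 1 µg/kg, the log2 fold change at 30 µg/kg was 1.09 for *Gclc* (adjusted p 0.012) and 0.62 for *Nfe2l2* (adjusted p 0.13). In those 3 mice *Gclc* was at 48.2 CPM in mouse 1, of the first use, and at 35.4 and 47.7 CPM in mice 2 and 3, of the second. Mouse 2 had the lowest *Gclc* of all mice. Neither this fit nor the slope in the 11 mice was repeated without it.

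Genes of the circadian clock moved with dose in the same mice. All 9 listed genes that peak with *Dbp* were called higher at 30 µg/kg and 4 of 5 genes of the opposite phase were called lower. At 1, 3, 10 and 30 µg/kg, 0.4%, 0.645%, 1.76% and 5.42% of all genes were called higher. Lower calls made up 0.191%, 0.46%, 0.771% and 3.98% of all genes at those doses. A score of these genes, the mean standardized log2 CPM of the first set minus that of the second, lay between -1.92 and -1.66 in vehicle mice, between 0.0537 and 1.78 at 1 µg/kg and between 1.92 and 2.35 at 30 µg/kg. The part of the clock in the *Gclc* and *Nfe2l2* values cannot be told apart from that of dose. With this score as a term, the log2 fold change at 30 µg/kg was 0.49 for *Gclc* (adjusted p 0.31) and 0.48 for *Nfe2l2* (adjusted p 0.31), neither was called, and 38 genes in all were called at that dose in place of 1574. In mouse 3 at 0.01 µg/kg, whose score was 1.5, *Gclc* was at 48.9 CPM and *Nfe2l2* at 97 CPM. In mouse 1 at 1 µg/kg, whose score was 1.78, *Gclc* was at 48.2 CPM and *Nfe2l2* at 110 CPM. Both mice were above all vehicle mice in both genes, by little for *Gclc* (44.5 to 47.4 CPM in vehicle mice). Over the 3 mice at 1 µg/kg, with scores from 0.0537 to 1.78, *Gclc* was at 35.4 to 48.2 CPM and *Nfe2l2* at 103 to 114 CPM. At that dose 6 of the 9 genes that peak with *Dbp* were called higher, beside 0.4% of all genes. These few mice do not separate the clock from dose.

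**Figure D3:**
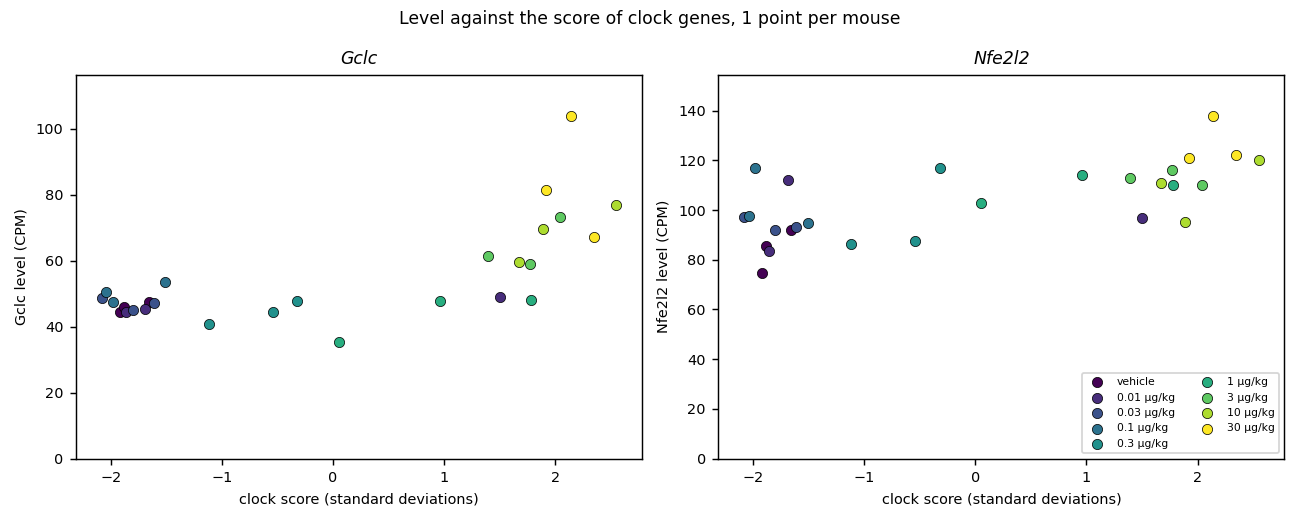
Level of *Gclc* and *Nfe2l2* (CPM) against the clock score, with 1 point per mouse coloured by dose. *Gclc* lay between 35.4 and 53.7 CPM up to 1 µg/kg and at 59 CPM or more from 3 µg/kg. The parts of dose and clock in these levels cannot be told apart.

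Markers of several cell types differed at 30 µg/kg. All 3 enteroendocrine markers were called higher, beside 5.42% of all genes, with sums of 152 to 160 CPM against 64.3 to 78.4 CPM in vehicle mice. The goblet sum lay between 29132 and 31831 CPM against 20797 to 23476 CPM, with 0 of 5 markers called by edgeR or DESeq2. All 5 had an unadjusted p under 0.05 in edgeR, but not all in one direction, as 4 of the 5 had a log2 fold change above 0. Of the 16741 genes tested, 5230 had an unadjusted p under 0.05 at that dose. The lymphocyte and plasma cell sum lay between 269 and 363 CPM against 430 to 603 CPM. Of its 6 markers 1 was called lower, beside 3.98% of all genes (*Jchain*, log2 fold change -1.61, adjusted p 0.002). The mean of *Jchain* alone went from 249 to 81.6 CPM. Of the 6 markers 2 had a log2 fold change above 0, and the median was -0.10. Only 1 had an unadjusted p under 0.05 in edgeR, beside the same 5230 of 16741 genes. The part of these cells in the *Gclc* and *Nfe2l2* values was not tested. Vehicle mice had a summed level of 6 enterocyte markers between 8387 and 10698 CPM, and mice 1 to 3 at 30 µg/kg had 8595, 21940 and 15895 CPM, and 1 of the 6 was called higher. *Gclc* was at 67.3, 104 and 81.5 CPM in those mice, all above the vehicle mice, and the enterocyte sum of mouse 1 lay within the vehicle range. The part of enterocyte content in the *Gclc* values was not tested. Mouse 1 also had a summed smooth muscle level of 345 CPM against 25 to 110 CPM in vehicle mice. Leaving out the 4 libraries in which that sum exceeded 2 times the highest vehicle mouse (1 at 0.3, 2 at 10 and 1 at 30 µg/kg) gave *Gclc* a log2 fold change of 0.98 and *Nfe2l2* 0.59 at 30 µg/kg, and both were called. *Gclm* was then at 0.41 (adjusted p 0.042), under the fold limit. The 4 defining markers of the ileal enterocyte were present in every mouse. Their sum was 2578, 2144 and 1945 CPM at 30 µg/kg, all below the 2582 to 2885 CPM of vehicle mice. Of the 4, *Fabp6* was called lower (log2 fold change -0.94, adjusted p 0.012) and *Slc10a2* higher (0.75, adjusted p 0.034). For both genes the groups overlapped, and mouse 1 at 30 µg/kg lay within the vehicle range (*Fabp6* 1492 CPM, *Slc10a2* 355 CPM). The haemoglobin genes had at most 11 counts in any mouse.

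**Figure D4:**
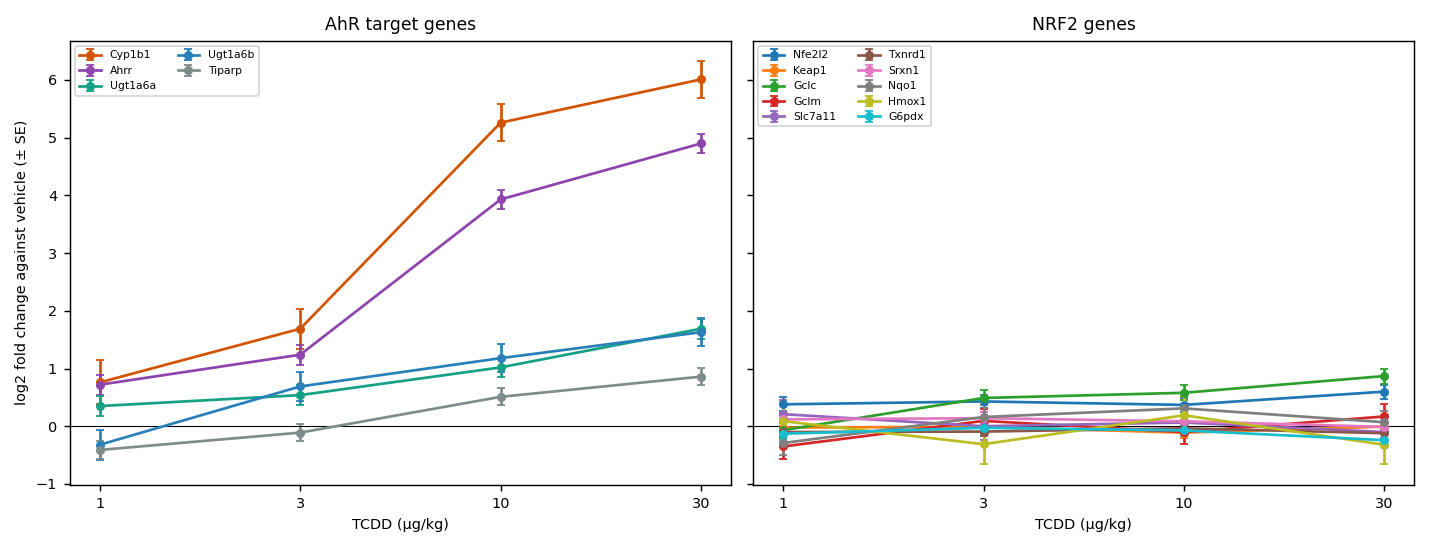
Log2 fold change against vehicle (± SE, n = 3 mice per group) at 1, 3, 10 and 30 µg/kg for 5 AhR target genes on the left and the 10 NRF2 genes on the right, on one vertical scale. *Cyp1b1* (6.01) and *Ahrr* (4.90) stood far above every NRF2 gene at 30 µg/kg, where *Gclc* was at 0.87.

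The rest of the antioxidant network was read from lists of genes known for each role, chosen with earlier results of these data known. The counts called at 30 µg/kg stand beside 9.4% of all genes called there, 5.42% higher and 3.98% lower. Of 13 tested regulators of NRF2, 1 was called at 30 µg/kg. This was *Bach1*, which encodes a repressor that competes with NRF2 at antioxidant response elements. It was at 289, 299 and 319 CPM in vehicle mice and at 319, 554 and 510 CPM at 30 µg/kg, a log2 fold change of 0.61 (SE 0.15, adjusted p 0.0057), and mouse 1 at 30 µg/kg stood at the level of the highest vehicle mouse. At 3 and 10 µg/kg *Bach1* was at means of 404 and 449 CPM against 302 CPM in vehicle mice. The median log2 fold change of the regulators at 30 µg/kg was -0.03, against 0.019 over all genes.

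Of 8 tested genes of glutathione synthesis and recycling, 1 rose and 2 fell at 30 µg/kg, with a median log2 fold change of 0.22. *Gsr*, glutathione reductase and a known NRF2 target, went from 351, 292 and 402 CPM in vehicle mice to 242, 188 and 175 CPM, a log2 fold change of -0.79 (SE 0.14, adjusted p 0.00062). *Chac1*, which degrades glutathione, had a log2 fold change of -1.89 (SE 0.44, adjusted p 0.0049) at 0.814 to 1.36 CPM, and *Slc1a4*, a neutral amino acid transporter, one of 0.94 (SE 0.29, adjusted p 0.027) with groups that overlapped. Of 10 peroxide and superoxide enzymes, 1 was called, *Gpx2*, the gastrointestinal glutathione peroxidase and another known NRF2 target. It was at 268, 215 and 342 CPM in vehicle mice and at 143, 64.7 and 49.6 CPM at 30 µg/kg, a log2 fold change of -1.68 (SE 0.29, adjusted p 0.00038). *Gpx2* is known to be strongest in crypts, and the summed level of 4 stem cell markers, 1 of them called lower, lay between 107 and 163 CPM in vehicle mice and between 40.1 and 105 CPM in mice given 30 µg/kg. The part of crypt content in the fall of *Gpx2* was not tested.

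Of 12 thioredoxin system genes, 1 rose at 30 µg/kg, *Sesn1* (log2 fold change 0.66, SE 0.14, adjusted p 0.0018), a sestrin whose groups overlapped, and their median log2 fold change was -0.21. Among 6 genes of NADPH supply edgeR and DESeq2 each called 0 at 30 µg/kg, and 2 had an unadjusted p under 0.05 in edgeR. Among 7 genes of heme and iron handling both tools also called 0, and 1 had an unadjusted p under 0.05 in edgeR. Of the 16741 genes tested, 5230 had an unadjusted p under 0.05 in edgeR at 30 µg/kg. Of 16 tested glutathione transferases, 1 rose at 30 µg/kg, *Gsta4*, which conjugates lipid aldehydes, from 5.77, 7.85 and 7.2 CPM to 18.8, 15.7 and 12.7 CPM (log2 fold change 1.18, SE 0.23, adjusted p 0.0013). Of 11 tested quinone and carbonyl enzymes, 1 rose, *Ptgr1*, a reductase of eicosanoids and alkenals, with a log2 fold change of 0.87 (SE 0.28, adjusted p 0.03).

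Of 5 efflux pumps, 2 rose at 30 µg/kg, beside 5.42% of all genes called higher. *Abcc2*, which exports glutathione conjugates and other organic anions, was at 91.4, 145 and 98.2 CPM in vehicle mice and at 304, 918 and 481 CPM at 30 µg/kg. It was also the 1 pump of the 5 that was called at 1, 3 and 10 µg/kg, where 0.4%, 0.645% and 1.76% of all genes were called higher, with log2 fold changes of 1.79, 2.21 and 1.98, and reached 2.35 (SE 0.35, adjusted p 8.1e-05) at 30 µg/kg. *Abcc5* joined it at 30 µg/kg, at 1.73 (SE 0.26, adjusted p 9.5e-05). Among 10 stress genes driven by other factors, *Trib3*, a target of the integrated stress response, was called higher at 1, 3, 10 and 30 µg/kg, reaching 2.32 on the log2 scale (SE 0.36, adjusted p 0.00012) at the last. *Asns*, asparagine synthetase and another target of that response, was called lower at 3, 10 and 30 µg/kg, at -1.36 (SE 0.26, adjusted p 0.001) at the last. At 0.01 µg/kg *Abcc2* reached 373 CPM and *Trib3* 7.52 CPM, within their ranges at 1 µg/kg (329 to 426 and 7.22 to 10.4 CPM). With the clock score as a term, 0 genes in all were called at 1 and 3 µg/kg and 4 at 10 µg/kg. The parts of clock and dose in the *Abcc2*, *Trib3* and *Asns* values cannot be told apart.

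**Figure D5:**
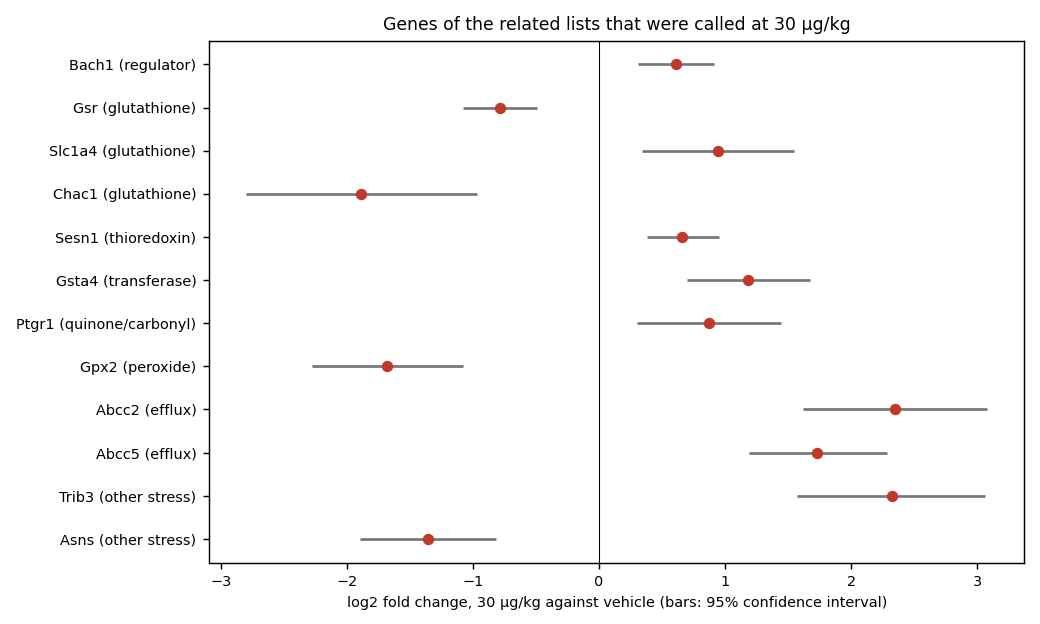
Log2 fold change at 30 µg/kg against vehicle, with 95% confidence intervals, of the 12 genes of the related lists that were called at that dose, each with its role. *Gsr*, *Chac1*, *Gpx2* and *Asns* lay below 0 and the other 8 above it.

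The 5 genes whose log2 CPM correlated most with *Gclc* over the 27 mice, given as a description, were *Plekhh1* (Pearson's r 0.917), *Cdc37l1* (0.909), *Akr1c19* (0.904), *Entpd5* (0.902) and *Tspan13* (0.900). None of the other 9 NRF2 genes was among them. At 30 µg/kg their log2 fold changes ran from 0.45 for *Tspan13* to 1.66 for *Akr1c19*, an aldo-keto reductase. Of the 5, 4 were called, all higher, beside 5.42% of all genes. The mice used to pick these genes include those at 30 µg/kg, where *Gclc* was high. Higher levels there follow from that choice and are not a separate result.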

How the data were processed

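Per the submitters' processing notes and the study's methods, reads were checked with FastQC 0.11.3, trimmed with Trimmomatic 0.33, aligned to GRCm38 with TopHat2 2.1.0, handled with SAMtools 1.2.0 and counted with HTSeq 0.6.1, and the authors deposited raw counts per Ensembl gene without normalization, 1 table per mouse. Counting options are not given in the sources used here, and 44.48% to 49.52% of uniquely aligned reads matched no feature. Symbols came from GENCODE M21.

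Counts were tested with edgeR 4.0.16 (R 4.3.3) on all genes: filterByExpr, TMM, 9 groups, quasi-likelihood, Benjamini-Hochberg. The SE was taken as |log2 fold change|/√F, and log2 CPM used a prior count of 2. The procedure was tested on simulated counts. Libraries of 1 dose group never agreed within sampling noise in 27 comparisons (chi-square per degree of freedom 6.99 to 74.26). Alternatives used DESeq2 1.42.0, other scalings, filters, covariates and subsets. Index use was read from the index sequences recorded with the samples.

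The 10 genes and the other lists were chosen with earlier results of these data known. Of the related lists, genes called at 30 µg/kg are named, at most 4 per list, and AhR targets that passed the filter.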

Additional observations from a re-analysis of the deposited data

How the results depend on the processing

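The number of NRF2 genes called at 30 µg/kg, 2 by edgeR with TMM, was 1 with library size only, 1 with no filter on low counts, 1 with a term for library index use and 0 with the clock score as a covariate, and it ran from 1 to 2 with each mouse left out in turn. In the first 3 cases the gene lost was *Nfe2l2*. At 10 µg/kg the number was 0, and 1 (*Gclc*) with upper-quartile normalization, a fold limit left off, a filter of at least 10 counts in every mouse, only the 6 mice compared, or without 4 libraries high in smooth muscle markers (chosen after seeing the data, and leaving only mouse 3 at 10 µg/kg), and it ran from 0 to 1 with each mouse left out. With at least 10 counts in every mouse, *Hmox1* was not tested. The number past the threshold for any difference was 1 in place of 2 with library size only, and for the slope the first index use (16 mice) gave 0 and the second (11 mice) gave 1. Where 2 mice or 1 remained in a group, they were assumed to vary like the other groups. At these depths *Hmox1* and *Slc7a11* are the least precise.

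Of 446 values of single genes under other settings, 49 changed sign, as did 25 of 240 with a mouse left out. None of these was past an adjusted p of 0.05 in edgeR or DESeq2, and the cause was not tested. With a term for index use, the log2 fold changes that changed sign were, at 1 µg/kg, *Gclc* 0.069, *Srxn1* -0.017, *Keap1* 0.056, *G6pdx* 0.0074 and *Slc7a11* -0.20. At 3 µg/kg they were *Srxn1* -0.066, *Keap1* 0.11, *G6pdx* 0.18 and *Slc7a11* -0.58, at 10 µg/kg *Gclm* 0.24, *Srxn1* -0.12, *Keap1* 0.011, *G6pdx* 0.13 and *Slc7a11* -0.52, and at 30 µg/kg *Keap1* 0.11. With the clock score they were *Hmox1* -0.10 and *Txnrd1* 0.073 at 1 µg/kg, *Nqo1* -0.23 and *Txnrd1* 0.14 at 3 µg/kg, *Nqo1* -0.12, *Gclm* 0.038, *Hmox1* -0.075 and *Txnrd1* 0.22 at 10 µg/kg, and *Nqo1* -0.37, *Txnrd1* 0.13, *Srxn1* 0.16 and *Slc7a11* 0.18 at 30 µg/kg. Without the 4 libraries they were *Slc7a11* -0.0027 at 3 µg/kg, *Gclm* 0.28, *Hmox1* -0.43, *Txnrd1* 0.061, *Keap1* 0.073, *G6pdx* 0.0098 and *Slc7a11* -0.23 at 10 µg/kg, where each value rests on mouse 3 alone, and *Nqo1* -0.088, *Srxn1* 0.091 and *Keap1* 0.0011 at 30 µg/kg. *Slc7a11* at 3 µg/kg was -0.0031 with upper-quartile normalization, -0.043 with library size only and -0.0037 with no filter. *Nqo1* at 30 µg/kg was -0.05 with library size only, and *Keap1* was 0.0035 there with at least 10 counts in every mouse. Slopes that changed sign were *Nqo1* -0.026, *Gclm* -0.02, *Keap1* 0.028 and *G6pdx* 0.0026 in the first index use, *Srxn1* -0.069 and *Keap1* 0.0047 in the second, and *Gclm* -0.0059 without the 30 µg/kg mice.

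With each mouse left out, log2 fold changes at 1 µg/kg ran from -0.52 to 0.014 for *Nqo1*, from -0.15 to 0.057 for *Gclc*, from -0.077 to 0.28 for *Hmox1* and from -0.073 to 0.059 for *Keap1*. At 3 µg/kg they ran from -0.034 to 0.0094 for *Keap1*, from -0.082 to 0.044 for *G6pdx* and from -0.37 to 0.20 for *Slc7a11*. At 10 µg/kg they ran from -0.33 to 0.066 for *Gclm*, from -0.029 to 0.41 for *Hmox1*, from -0.089 to 0.0034 for *Txnrd1*, from -0.023 to 0.17 for *Srxn1* and from -0.14 to 0.27 for *Slc7a11*. At 30 µg/kg they ran from -0.086 to 0.17 for *Nqo1*, from -0.15 to 0.42 for *Gclm*, from -0.10 to 0.093 for *Srxn1*, from -0.087 to 0.03 for *Keap1* and from -0.25 to 0.093 for *Slc7a11*.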
